A study of Mus musculus with 14 samples.

Results

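The 32 genes described here are genes whose RNA is reported to increase with age in mouse hematopoietic stem cells (HSCs). They were taken by name, from a list drawn up with earlier results of these libraries known. They are 32 of the 55450 genes with a read count in each library, and all 32 were among the 16878 genes that passed the filter on low counts and were tested. The libraries hold polyA RNA of long-term HSCs (LT-HSCs) of female C57BL/6 mice. Each library was made from 5000 marrow cells with CD150, c-Kit and Sca-1 on their surface and without CD48 or the lineage markers Ter-119, Mac-1, Gr-1, CD3 and B220. Before transplantation, cells with low or high surface P-selectin (Selp low and Selp high) were sorted from mice older than 24 months, giving 4 libraries of each. The sample titles number these libraries but name no mouse. Same-numbered Selp low and Selp high libraries were read as 1 mouse, since they deviated together (r 0.289 to 0.527). The mice 1 to 4 named below rest on this reading. After transplantation, cells derived from 1000 transplanted Selp low or Selp high cells were recovered 16 weeks later from lethally irradiated recipients that had been 10 to 16 weeks old. There are 3 libraries for each input, sorted for CD45.2 and the same LT-HSC markers but with no gate on P-selectin, and they are called Selp low-derived and Selp high-derived here. Donor cells in all 4 groups came from old mice. No library of young donor cells was analysed here, so no level below can be set beside a young one. Donor marrow and recipient marrow differ between the stages together with irradiation, the CD45.2 gate and the time of collection, and these cannot be told apart. The sources used here do not say whether the post-transplant libraries of a group are from different recipients, so their spread may be partly technical.

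HSCs sit at the top of blood formation and replace all blood lineages after transplantation. With age they grow in number, repopulate less well per cell, and make more myeloid cells and platelets relative to lymphocytes. Their RNA shifts with them: transcripts of platelet granule proteins, adhesion molecules, cytokine and growth factor receptors and some stress genes are reported higher in old HSCs. Von Willebrand factor (Vwf), clusterin (Clu) and P-selectin itself are among the best known of these genes.

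Reads assigned to genes numbered 22374794 to 38216775 in a library. Transcripts of the sort markers were present throughout, and the summed level of 10 LT-HSC marker genes was 4467 to 5448 CPM (read counts scaled to the library's size) before and 3163 to 4372 CPM after transplantation. Transcripts of other cell types were present too. The sum of 10 neutrophil genes ran from 328.7 to 19549 CPM, with the highest sums in both libraries of mouse 4 (14553 and 19549 CPM) and in Selp low-derived replicate 2 (12236 CPM). In earlier results on these files, 2 post-transplant libraries were separated from the other 4 on principal components, replicate 2 of the Selp low-derived and replicate 1 of the Selp high-derived group.

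Promoter sequence was looked up because most of the 32 genes changed in one direction between the stages, as described below. RefSeq (GRCm38.p6) windows were at hand for 22 of the 32 genes, 31 windows in all. The 250 bases before each start were searched on both strands for 9 short motifs. A gene counted when any of its windows matched, and shares are of all 27025 genes with a window, whether or not tested here. CCAAT was found in 12 of the 22 genes (54.5%), against 37.5% of 27025 genes, and the GC box GGGCGG in 9, against 35.4%. By window, CCAAT was in 15 of 31, against 33.8% of all windows, and the GC box in 10, against 32.7%. RUNX letters (TGTGGT) were in 4 (15.9% of genes), GATA letters (AGATAA) in 3 (11.4%), TATAAA in 3 (14.3%), ETS letters (CCGGAAG) in 2 (7.8%) and AP-1 letters (TGANTCA) in 1 (7.8%). TEAD letters (GGAATG) were in 3 genes, Amotl2, Art4 and Wwtr1, against 14.4% of genes, and the cAMP response element (TGACGTCA) was in none of the 31 windows of these 22 genes, against 1.8% of genes. The motifs do not overlap each other in the sequences shown, and no motif was tested. The 4 windows below belong to the called members with the largest falls that met 2 conditions. Their 250 bases overlap no annotated exon, and the bases after the start occur in an annotated transcript of the gene. They run 5′ to 3′ on the gene's strand up to the base before the start, with motif matches on either strand in capitals.
Tm4sf1 (chr3:57301989-57302238, minus strand): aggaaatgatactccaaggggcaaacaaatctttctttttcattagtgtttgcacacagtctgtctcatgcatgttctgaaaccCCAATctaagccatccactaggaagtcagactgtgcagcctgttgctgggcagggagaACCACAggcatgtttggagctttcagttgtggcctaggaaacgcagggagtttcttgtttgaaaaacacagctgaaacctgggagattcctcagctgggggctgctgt
Wwtr1 (chr3:57575911-57576160, minus strand): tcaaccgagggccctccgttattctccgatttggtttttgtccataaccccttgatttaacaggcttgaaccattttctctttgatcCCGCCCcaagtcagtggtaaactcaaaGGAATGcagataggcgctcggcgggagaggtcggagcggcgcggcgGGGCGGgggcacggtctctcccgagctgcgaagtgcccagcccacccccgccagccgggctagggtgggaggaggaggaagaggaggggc
Ghr (chr15:3581843-3582092, minus strand): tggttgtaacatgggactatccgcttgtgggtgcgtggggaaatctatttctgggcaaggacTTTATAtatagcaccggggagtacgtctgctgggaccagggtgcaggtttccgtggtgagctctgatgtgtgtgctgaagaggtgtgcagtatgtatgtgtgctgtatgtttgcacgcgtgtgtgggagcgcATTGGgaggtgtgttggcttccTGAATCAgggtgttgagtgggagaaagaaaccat
Cavin2 (chr1:51288876-51289125, plus strand): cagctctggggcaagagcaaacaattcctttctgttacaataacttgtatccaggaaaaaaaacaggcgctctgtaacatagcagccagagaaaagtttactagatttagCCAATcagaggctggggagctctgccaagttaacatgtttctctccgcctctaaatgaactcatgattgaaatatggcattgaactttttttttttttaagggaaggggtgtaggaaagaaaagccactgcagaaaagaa
Tm4sf1 carries CCAAT and a RUNX match written on the other strand, Wwtr1 a TEAD match and GC boxes on both strands, Ghr AP-1, TATA and CCAAT matches, and Cavin2 CCAAT alone. A match is a run of letters and not a bound site. The Ghr window lies inside the annotated gene (chr15:3317760-3583492), so it precedes an internal start and not the outermost one.

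The first comparison asks how these genes of old HSCs stood after the cells had passed through a young recipient. Of the 32 genes, 28 fell between the pre-transplant and the post-transplant libraries and none rose, as the mean of both inputs (edgeR quasi-likelihood test, adjusted p under 0.05, which is what "called", "fell" and "rose" mean here). Over all genes tested 14.6% were called lower and 12.9% higher by the same rule. The median log2 change of the 32 was -1.07, against -0.01 over all genes tested, with a range of -4.84 to 0.57. The change was below 0 for 30 genes, against 50.9% of all genes. For 21 genes all 6 post-transplant libraries lay under all 8 pre-transplant libraries, as they did for 5.47% of all genes. In bulk RNA, fewer cells with a transcript and less of it per cell cannot be told apart. The genes were sorted into 7 role groups, which are loose labels and not strict protein classes, and the falls covered all 7. By group they were 6 of 6 in platelet granule, clotting and secreted, 4 of 5 in surface adhesion and lectin-like, and 5 of 5 in receptors and channels. They were 4 of 4 in membrane curvature, traffic and lipid, 3 of 4 in enzymes and stress, 4 of 4 in nuclear regulators and 2 of 4 in cytoplasmic signalling and scaffold. The median log2 change was largest in size for receptors and channels (-1.74) and smallest for the signalling and scaffold group (-0.41). Leaving out the 2 post-transplant libraries that stood apart left 27 genes called lower, and leaving out the 3 libraries with the highest neutrophil sums left 30.

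All genes of the platelet granule, clotting and secreted group fell. Clu, a secreted chaperone (chr14:65968483-65981547), was at 615.9, 592.0, 657.7 and 547.3 CPM in the Selp low libraries and 867.2, 770.2, 802.8 and 684.4 CPM in the Selp high libraries. After transplantation it was at 56.8, 107.7 and 118.1 CPM in the Selp low-derived and 105.0, 98.8 and 64.7 CPM in the Selp high-derived libraries. Every post-transplant library was far under every pre-transplant one, a 7.47-fold fall (log2 change -2.90 ± 0.17 (SE), edgeR adjusted p = 2.16e-07). Zg16, a secreted lectin of gut and pancreas (chr7:127050156-127087328), was at 19.3, 26.1, 28.7 and 24.1 CPM in Selp low and 27.3, 38.3, 28.5 and 29.2 CPM in Selp high cells. It was at 0.293, 1.05 and 0.601 CPM in Selp low-derived and 2.81, 1.09 and 0.337 CPM in Selp high-derived cells. The groups did not overlap, and the change of -4.84 ± 0.39 was the largest of the 32 in size (28.6-fold, edgeR adjusted p = 2.60e-06). Zg16 overlaps 2 other annotated genes, and the counts do not keep strand. Reads that match exons of more than 1 gene were counted apart as ambiguous and are not in its values. What the overlap does to its level was not tested.

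Mmrn1, the factor V-binding multimerin of platelet granules, had the highest level per kilobase of exon of the 32 genes, with a mean of 196.3 CPM per kilobase over the 14 libraries. It was at 1329, 1142, 1500 and 1360 CPM in Selp low, 1799, 1269, 1510 and 1355 CPM in Selp high cells, then 596.8, 786.6 and 839.6 CPM in Selp low-derived and 931.5, 961.7 and 744.9 CPM in Selp high-derived cells. No library of one stage reached into the range of the other (log2 change -0.80 ± 0.11, edgeR adjusted p = 1.25e-04). Vwf, which tethers platelets to injured vessel walls, ran from 477.8 to 837.5 CPM before and 217.1 to 544.2 CPM after, so the stages overlapped (-0.85 ± 0.19, edgeR adjusted p = 0.00506). Plek, the pleckstrin of platelets, fell by 1.41 ± 0.16 and Fyb, an adaptor of integrin activation, by 0.44 ± 0.09 on the log2 scale.

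Genes of a platelet list moved differently. Of 7 such genes tested, the chemokines Pf4 (log2 change 2.32 ± 0.33) and Ppbp (2.51 ± 0.23) and the receptor subunit Gp1ba (0.80 ± 0.17) rose, Gp9 fell (-0.53 ± 0.09) and 3 were not called. The sum of all 8 listed genes was 213.4 to 389.3 CPM before and 249.1 to 355.8 CPM after, and Gp6 had no read in any library. Much of this sum was Itga2b, at 131.5 to 297.6 CPM before and 80.3 to 181.0 CPM after. Itga2b is also among the other genes reported higher in old HSCs, described below, so it is not particular to platelets. Pf4 was at 6.69 to 37.4 CPM before and 44.3 to 99.2 CPM after. What part platelet or megakaryocyte RNA has in the levels of Vwf, Mmrn1 and Plek was not tested.

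Of the surface adhesion and lectin-like genes, Art4, Tm4sf1, Alcam and Clec1a fell and Neo1 was not called. Art4, the carrier of the Dombrock blood group, had the highest level per kilobase of the group. It was at 553.9, 330.6, 494.1 and 443.2 CPM in Selp low, 522.9, 294.1, 416.0 and 425.9 CPM in Selp high cells, then 158.5, 285.7 and 259.7 CPM in Selp low-derived and 158.4, 218.5 and 174.4 CPM in Selp high-derived cells. The highest post-transplant library lay just under the lowest pre-transplant one, which was the Selp high library of mouse 2 (-1.07 ± 0.17, edgeR adjusted p = 3.36e-04). Tm4sf1, a small membrane protein of the 4-pass type, fell by 1.85 ± 0.18 on the log2 scale, from 50.4 to 124.0 CPM before to 18.7 to 29.1 CPM after. Alcam, a cell adhesion molecule of the immunoglobulin family, was at 63.2, 55.4, 109.4 and 79.9 CPM in Selp low, 68.6, 118.3, 132.8 and 89.5 CPM in Selp high cells, then 27.3, 62.8 and 47.0 CPM in Selp low-derived and 34.6, 37.7 and 23.7 CPM in Selp high-derived cells. Only Selp low-derived replicate 2 reached into the pre-transplant range (-1.21 ± 0.22, edgeR adjusted p = 0.00100). Clec1a, a C-type lectin receptor, fell by 0.96 ± 0.18. The change of Neo1, a receptor for netrins and repulsive guidance molecules, was -0.44 ± 0.17 (edgeR adjusted p = 0.074). It was called with DESeq2 (adjusted p = 0.0407) and with limma voom (adjusted p = 0.0459).

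All 5 receptors and channels fell, and in each the stages did not overlap. Osmr, the signalling subunit for oncostatin M (chr15:6813577-6874969), was at 14.7, 16.6, 24.7 and 23.2 CPM in Selp low and 24.7, 26.2, 35.3 and 33.5 CPM in Selp high cells. After transplantation it was at 0.330, 2.31 and 1.72 CPM in Selp low-derived and 1.03, 1.35 and 0.573 CPM in Selp high-derived cells. The highest post-transplant value was that of Selp low-derived replicate 2, and the fall was 20.4-fold (-4.35 ± 0.35, edgeR adjusted p = 2.60e-06). Bmpr1a, a type I receptor for bone morphogenetic proteins (chr14:34410734-34503341), was at 30.2, 36.6, 31.3 and 35.9 CPM in Selp low and 36.4, 45.7, 33.2 and 33.6 CPM in Selp high cells. It was at 6.85, 6.72 and 6.39 CPM in Selp low-derived and 7.89, 13.96 and 3.91 CPM in Selp high-derived cells, where the 3 libraries spread far more than the Selp low-derived ones. The fall was 4.68-fold (-2.23 ± 0.22, edgeR adjusted p = 1.11e-05).

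Ramp2, the partner protein that makes the calcitonin receptor-like receptor respond to adrenomedullin, had the highest level per kilobase of the receptor group. It was at 267.0, 101.0, 71.9 and 80.7 CPM in Selp low, 265.6, 115.8, 101.7 and 119.7 CPM in Selp high cells, then 29.5, 70.6 and 61.3 CPM in Selp low-derived and 42.8, 46.4 and 9.64 CPM in Selp high-derived cells. Both libraries of mouse 1 stood far above the other 3 mice (-1.74 ± 0.41, edgeR adjusted p = 0.00623). The growth hormone receptor Ghr fell from 50.8 to 81.8 CPM before to 16.8 to 35.8 CPM after (-1.34 ± 0.15). Trpc1, a cation channel, was at 14.3, 16.3, 15.7 and 14.8 CPM in Selp low, 17.4, 17.9, 21.5 and 14.7 CPM in Selp high cells, then 7.51, 11.8 and 8.58 CPM in Selp low-derived and 5.37, 6.68 and 4.85 CPM in Selp high-derived cells. Its lowest 3 values were the Selp high-derived libraries (-1.19 ± 0.14, edgeR adjusted p = 4.29e-05).

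Among proteins of membrane curvature, traffic and lipid, Cavin2, a coat protein of caveolae, had the highest level per kilobase. It was at 341.7, 304.5, 313.8 and 300.3 CPM in Selp low, 358.9, 319.0, 347.2 and 305.3 CPM in Selp high cells, then 121.4, 134.0 and 144.4 CPM in Selp low-derived and 154.1, 143.3 and 90.3 CPM in Selp high-derived cells. The 8 pre-transplant values were close together, and the 6 post-transplant ones were all under them (-1.30 ± 0.11, edgeR adjusted p = 3.50e-06). Ehd3, an ATPase of endosome recycling (chr17:73804134-73832094), was at 422.3, 487.1, 591.7 and 527.9 CPM in Selp low and 543.5, 607.5, 698.7 and 521.8 CPM in Selp high cells. It was at 73.1, 146.2 and 140.0 CPM in Selp low-derived and 145.1, 149.5 and 75.0 CPM in Selp high-derived cells, a 4.52-fold fall without overlap (-2.18 ± 0.19, edgeR adjusted p = 4.59e-06). The lowest values of Ehd3 were in Selp low-derived replicate 1 and Selp high-derived replicate 3. Plscr2, of the phospholipid scramblase family, fell by 0.51 ± 0.13. The exocyst subunit Exoc6b fell by 0.43 ± 0.14 (edgeR adjusted p = 0.0355), and this call was lost in 10 of the 14 fits that left out 1 library, where the log2 change was -0.35 to -0.43.

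Enpp5, of the ectonucleotide pyrophosphatase family, had the highest level per kilobase of the enzymes and stress proteins. It was at 435.1, 531.9, 584.6 and 521.7 CPM in Selp low, 592.4, 454.4, 602.2 and 536.6 CPM in Selp high cells, then 258.0, 274.2 and 299.8 CPM in Selp low-derived and 312.7, 305.0 and 215.3 CPM in Selp high-derived cells. The stages did not overlap (-0.94 ± 0.11, edgeR adjusted p = 2.77e-05). Ampd3, which deaminates AMP, fell by 1.07 ± 0.14 and Oxr1, a protein of oxidation resistance, by 0.44 ± 0.10 on the log2 scale. The change of Pde4b, a cAMP phosphodiesterase, was -0.27 ± 0.12 (edgeR adjusted p = 0.111). It was called when Selp low-derived replicate 2 was left out (-0.37, adjusted p = 0.0305).

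All 4 nuclear regulators fell. Meis2, a homeobox partner of HOX proteins (chr2:115863064-116065839), had the lowest level per kilobase of the 32. It was at 9.04, 5.59, 8.45 and 5.78 CPM in Selp low and 11.9, 5.35, 9.84 and 4.87 CPM in Selp high cells, then at 0.623, 0 and 1.502 CPM in Selp low-derived and 0.569, 0.715 and 0.910 CPM in Selp high-derived cells. Selp low-derived replicate 2 had no read, which allows up to 0.113 CPM from counting error alone. The fitted fall was 10.6-fold (-3.40 ± 0.54, edgeR adjusted p = 3.87e-04). Mllt3, a subunit of a transcription elongation complex that maintains HSCs, had the highest level per kilobase of the group. It was at 232.2, 255.9, 242.0 and 247.1 CPM in Selp low, 336.6, 391.2, 355.0 and 326.0 CPM in Selp high cells, then 113.8, 258.2 and 151.0 CPM in Selp low-derived and 219.0, 146.3 and 127.5 CPM in Selp high-derived cells. Selp low-derived replicate 2 lay above all 4 Selp low libraries (-0.79 ± 0.16, edgeR adjusted p = 0.00257). Wwtr1, the coactivator TAZ of the Hippo pathway, fell from 66.1 to 90.2 CPM to 23.0 to 35.0 CPM (-1.39 ± 0.11, edgeR adjusted p = 2.52e-06). Runx1t1, a corepressor, fell by 1.03 ± 0.28 (edgeR adjusted p = 0.0127) and was highest in both libraries of mouse 1.

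Of the cytoplasmic signalling and scaffold group, Amotl2 and Fhl1 fell and Gem and Itgb1bp1 were not called. Amotl2, an angiomotin that binds YAP and TAZ, fell by 1.95 ± 0.19, from 72.5 to 102.8 CPM to 11.3 to 32.3 CPM. Fhl1, a LIM-domain scaffold, was at 207.8, 185.7, 187.3 and 157.3 CPM in Selp low, 262.2, 213.0, 216.4 and 196.7 CPM in Selp high cells, then 104.1, 114.9 and 107.1 CPM in Selp low-derived and 127.8, 114.1 and 106.5 CPM in Selp high-derived cells. The post-transplant libraries spread little and all lay under the pre-transplant ones (-0.85 ± 0.09, edgeR adjusted p = 1.27e-05). Gem, a small GTP-binding protein, was at 242.1, 161.4, 51.6 and 73.6 CPM in Selp low, 253.2, 165.8, 79.8 and 138.5 CPM in Selp high cells, then 218.2, 281.2 and 239.5 CPM in Selp low-derived and 201.4, 216.3 and 147.4 CPM in Selp high-derived cells. The pre-transplant libraries differed by mouse, with mouse 1 highest in both fractions and inside the post-transplant range (0.57 ± 0.31, edgeR adjusted p = 0.191). Without the Selp low library of mouse 1, Gem was called higher (0.80, adjusted p = 0.0474). Itgb1bp1, which binds the tail of beta 1 integrin, ran from 35.3 to 60.3 CPM before and 41.0 to 59.5 CPM after (0.04 ± 0.14, edgeR adjusted p = 0.873).

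**Figure D1:**
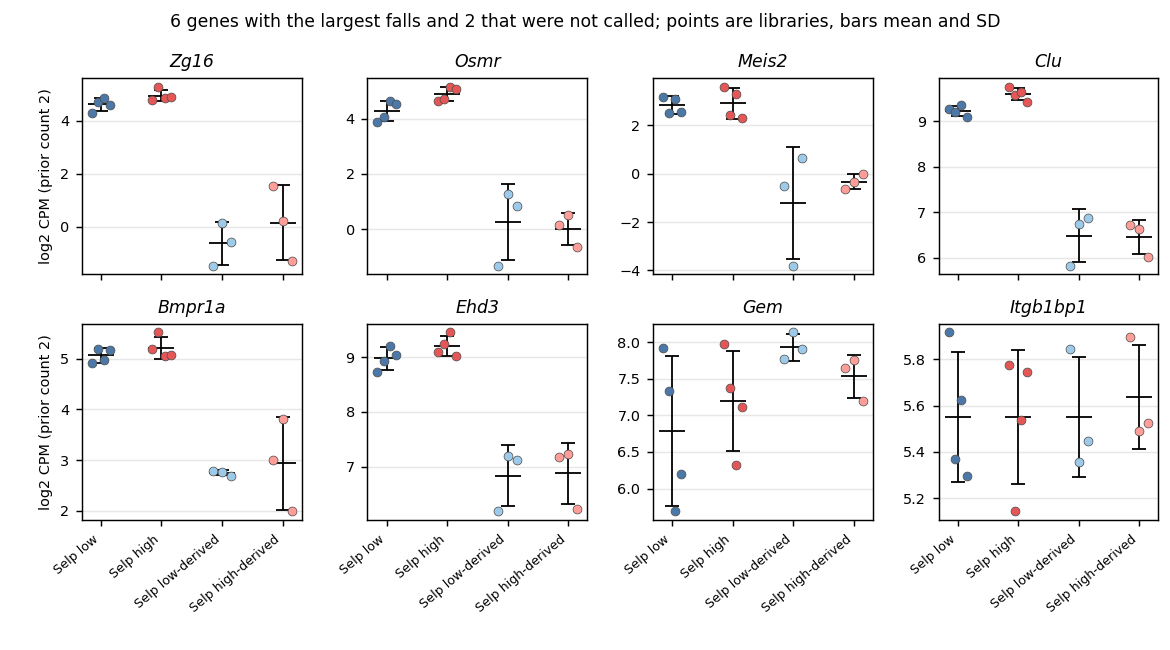
Log2 CPM (y axes, which differ between panels) in each of the 14 libraries (points) by group (Selp low, Selp high, Selp low-derived, Selp high-derived), with the group mean and SD as bars. The 6 genes with the largest called falls have every post-transplant library under every pre-transplant one, while Gem and Itgb1bp1 overlap between the stages.

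Each input was also compared with its own pre-transplant cells. From the Selp low input, 19 of the 32 genes fell and none rose, against 6.46% of all genes called lower and 5.01% higher, with a median log2 change of -0.90. For 24 of them the 3 post-transplant libraries lay under all 4 pre-transplant ones (11.9% of all genes). From the Selp high input, 25 fell and none rose, against 7.62% and 7.63%, with a median of -1.21 and 28 genes without overlap (14.8%). The median of the Selp low input went to -1.12 without the 2 post-transplant libraries that stood apart. All 19 genes called from the Selp low input were also called from the Selp high input. The 6 called from the Selp high input alone were Vwf, Fyb, Alcam, Ramp2, Oxr1 and Mllt3, and that their changes differ between the inputs is not shown, since none passed the test of that difference below. Leaving out 1 library lost some calls in at least 1 fit. These were Art4, Clec1a, Meis2 and Trpc1 from the Selp low and Clec1a, Oxr1, Ramp2 and Vwf from the Selp high input. Such fits gained Mllt3 and Plscr2 from the Selp low and Exoc6b, Neo1, Plscr2 and Runx1t1 from the Selp high input. The log2 change of Zg16 was -5.23 ± 0.57 from the Selp low and -4.44 ± 0.54 from the Selp high input, and that of Osmr -3.77 ± 0.48 and -4.94 ± 0.52. Clu changed by -2.68 ± 0.24 and -3.13 ± 0.24, and Meis2 by -3.36 ± 0.76 and -3.44 ± 0.76. For Bmpr1a the changes were -2.33 ± 0.31 and -2.12 ± 0.31, and for Ehd3 -2.08 ± 0.27 and -2.27 ± 0.27.

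**Figure D2:**
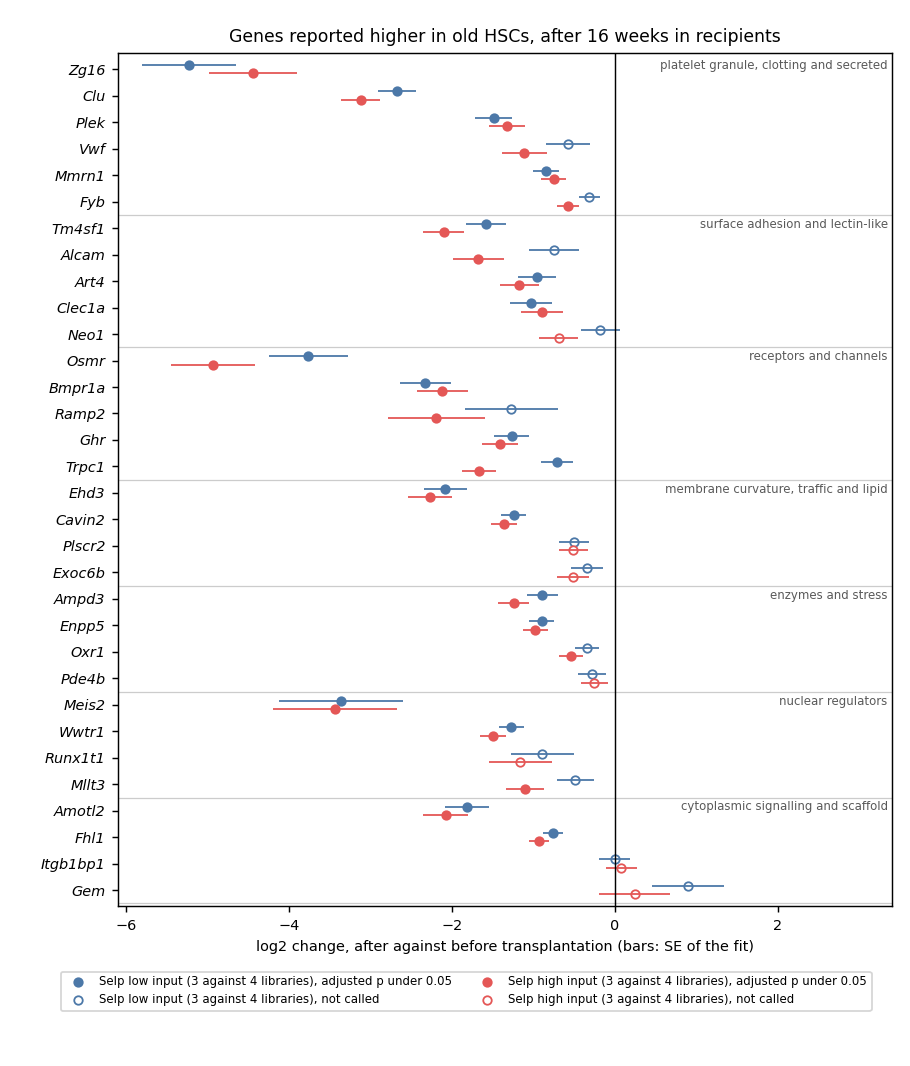
Log2 change after against before transplantation (x axis) for each of the 32 genes (y axis), grouped by role, with the Selp low input in blue and the Selp high input in red. Points are fitted changes with the standard error as a bar, and filled points passed the adjusted p threshold (19 in blue and 25 in red, all left of 0).

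Within each stage the 32 genes were not equally high in every library. Their mean log2 CPM was 6.89 ± 0.07 (SD, n = 4) in Selp low, 7.10 ± 0.10 (n = 4) in Selp high, 5.62 ± 0.30 (n = 3) in Selp low-derived and 5.59 ± 0.31 (n = 3) in Selp high-derived libraries, so it spread more after transplantation than before. Selp low-derived replicate 1 was the lowest post-transplant library for 16 genes and Selp high-derived replicate 3 for 10, while Selp low-derived replicate 2 was the highest for 12 and Selp high-derived replicate 1 for 8. With group means removed, the correlation between genes over the 14 libraries had a median of 0.321 over 496 pairs, with 376 pairs above 0. The pairs share libraries, depth and scaling, and these values are descriptions. The most alike were Trpc1 and Ampd3 (r = 0.891), and the least alike were Plek and Runx1t1 (r = -0.828), which before transplantation were lowest and highest in mouse 1, respectively.

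**Figure D3:**
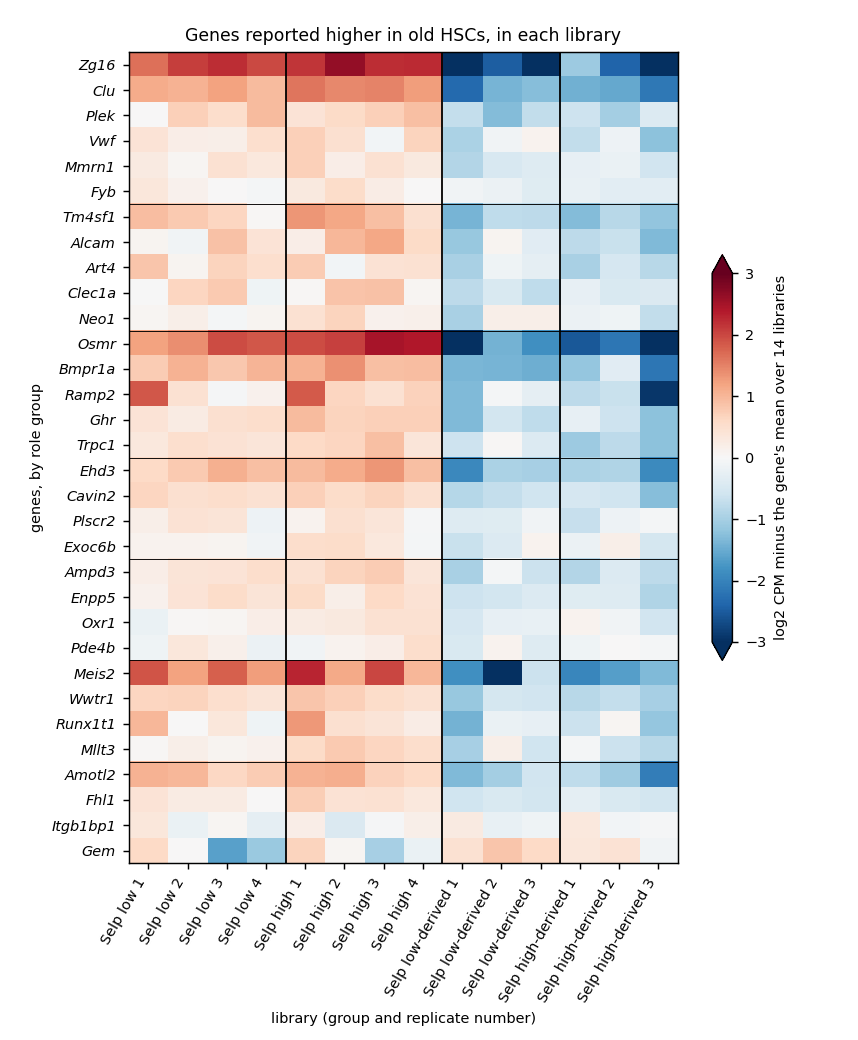
Log2 CPM of the 32 genes (rows, by role) in the 14 libraries (columns, by group), each row centred on its mean over all 14; colours stop at 3 log2 units above or below it. For 21 genes all 6 post-transplant columns are lower than all 8 pre-transplant ones, and Gem and Itgb1bp1 show no such step.

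The second comparison asks whether the genes differ between Selp high and Selp low cells of old mice, with same-numbered libraries read as 1 mouse. None of the 32 was called (edgeR 0, DESeq2 0, limma voom 0, edgeR with the mouse as a block 0), and edgeR called 0% of all genes in either direction. At an unadjusted p under 0.05 there were 3 of the 32, against 5.11% of all genes. The p-values and SEs in this comparison are from the fit of group means, which leaves out the pairing by mouse. In edgeR on the pre-transplant libraries alone, 2243 of 15426 genes had an unadjusted p under 0.05 with the mouse as a block. Without the block 744 had. With it, 2 genes, none of them among the 32, were called lower. The log2 change was above 0 for 29 genes, against 47.3% of all genes, with a median of 0.20 (all genes -0.02) and a range of -0.14 to 0.60. The genes were higher in the Selp high library for 27, 26, 27 and 23 of 32 in mice 1 to 4, where 47.3%, 49.8%, 47.6% and 50.1% of all genes were. In 4 of 4 mice 15 of the 32 were higher, against 10.83% of all genes, and Art4 was higher in no mouse. The differences are small and each misses the threshold, so no gene is shown to differ.

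The 4 genes with the smallest p were Mllt3, Oxr1, Fhl1 and Clu, whose values in every library are given above except for Oxr1. Mllt3 was higher in Selp high cells in all 4 mice, and its 4 Selp high libraries lay above the 4 Selp low ones (0.53 ± 0.21, edgeR adjusted p = 0.957). Oxr1 was at 330.0, 385.6, 391.1 and 436.6 CPM in Selp low, 449.9, 464.1, 518.6 and 519.0 CPM in Selp high cells, then 267.5, 316.3 and 324.7 CPM in Selp low-derived and 403.6, 352.4 and 253.2 CPM in Selp high-derived cells. Its Selp high values also lay above its Selp low values (0.34 ± 0.14, edgeR adjusted p = 0.957). The differences for Fhl1 (0.27 ± 0.11) and Clu (0.37 ± 0.20) had the same adjusted p. Without overlap between the fractions were Clu, Osmr, Ghr, Oxr1 and Mllt3, all higher in Selp high cells, and 1.52% of all genes were so. The summed neutrophil markers ran from 2089 to 14553 CPM in Selp low and from 328.7 to 19549 CPM in Selp high libraries, and their part in these values was not tested.

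**Figure D4:**
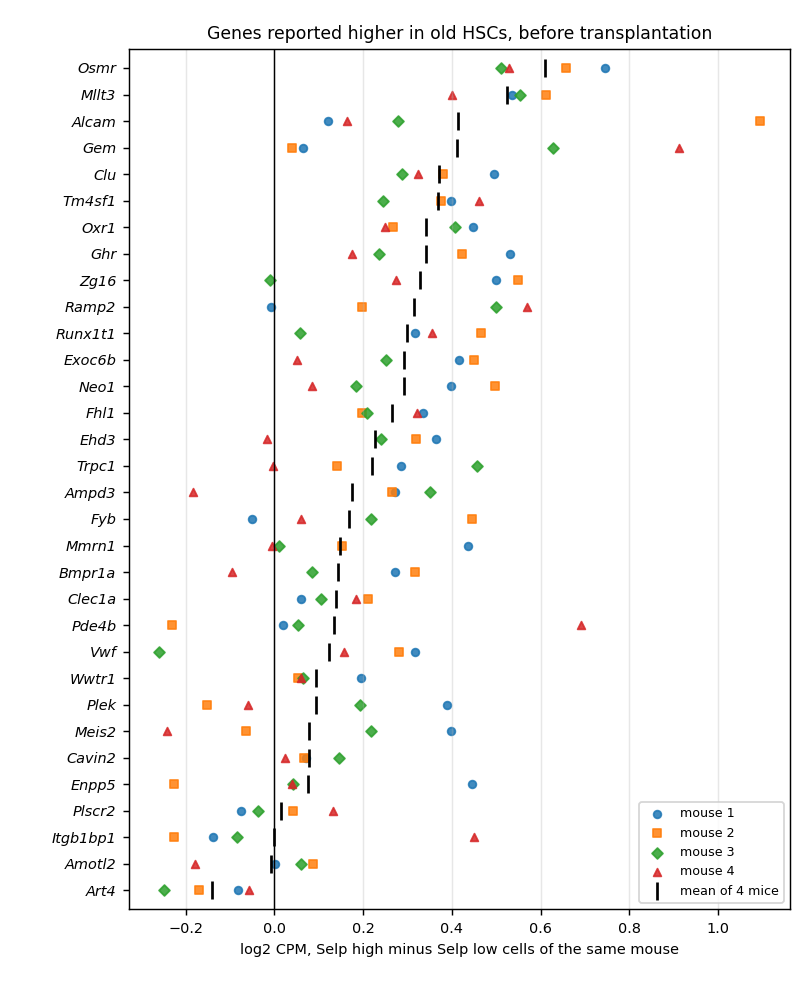
Log2 difference of Selp high minus Selp low within each of the 4 mice (points) for each of the 32 genes, with the mean of the 4 as a bar. The mean lies above 0 for most genes, and the median over the genes was 0.32, 0.24, 0.20 and 0.15 in mice 1 to 4.

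After transplantation, Selp high-derived and Selp low-derived cells were compared, which asks whether a difference between the inputs remained. None of the 32 was called (edgeR 0, DESeq2 0, limma voom 0), as was none of all genes tested by edgeR (0%). At an unadjusted p under 0.05 there was 1 of the 32, Trpc1, against 4.53% of all genes. The log2 change was above 0 for 16 genes, against 51.1% of all genes, and below 0 for 16, with a median of -0.02. Trpc1 was lower in the Selp high-derived cells without overlap (-0.72 ± 0.21, edgeR adjusted p = 0.980), as was Gem (-0.39 ± 0.47), and 5.55% of all genes were lower without overlap. Zg16 had the next smallest p (1.12 ± 0.56), at levels of 2.81 CPM or less. The median turned to 0.03 without replicate 3 of the Selp low-derived group and to 0.06 without that of the Selp high-derived group.

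The difference between the 2 Selp differences was tested directly. No gene of the 32 was called (edgeR 0, DESeq2 0, limma voom 0; all genes with edgeR 0%), and 2 had an unadjusted p under 0.05, against 5.18% of all genes. These were Trpc1 (-0.95 ± 0.28) and Alcam (-0.93 ± 0.43), both with an edgeR adjusted p of 0.879. Trpc1 stood 0.23 ± 0.18 higher in Selp high cells before transplantation and 0.72 ± 0.21 lower after it, and Alcam 0.41 ± 0.28 higher before and 0.51 ± 0.32 lower after, on the log2 scale. The value was below 0 for 25 of the 32 genes, against 49.1% of all genes, with a median of -0.20.

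A list of 27 other genes reported higher in old HSCs was set beside the 32. Of these, 23 fell after transplantation and none rose, against 14.6% of all genes called lower and 12.9% called higher. Their median log2 change was -2.15, against -0.01 over all genes tested. This list too was drawn up with earlier results of these libraries known. P-selectin (Selp), the adhesion receptor used for the sort, was at 491.3, 628.4, 669.1 and 476.8 CPM in the Selp low and at 665.0, 764.3, 760.2 and 615.2 CPM in the Selp high libraries, then at 243.2, 289.4 and 274.9 CPM in Selp low-derived and 303.4, 314.7 and 283.7 CPM in Selp high-derived cells. The fractions overlapped before transplantation, and all post-transplant libraries lay lower (2.22-fold, edgeR adjusted p = 3.54e-06). The integrin subunit Itgb3 fell 6.58-fold, the junction protein Jam2 4.43-fold, the desmosome cadherin Dsg2 4.47-fold and the metallothionein Mt1 2.73-fold. The list includes 5 immediate early genes, which respond within minutes to many stimuli, Egr1, Fos, Junb, Zfp36 and Nr4a1, all of which fell, with log2 changes from -3.40 to -5.76. Selp low-derived replicate 2 was the highest post-transplant library for each of them, with Fos at 1321 CPM against 13.8 to 186.3 CPM in the other 5 and 1408 to 6640 CPM before transplantation, and Zfp36 at 660.5 CPM against 48.6 to 163.5 CPM. Their part in the change of the 32 genes was not tested. Between the fractions before transplantation none of the 27 was called, with 19 above 0 and 8 below, against 47.3% of all genes above 0. Without overlap between the fractions, 3 of the 27 were higher in Selp high cells (Jam2, Cd38 and Tc2n) and 1 was lower (Junb). Of all 16878 genes tested, 257 were higher and 263 lower without overlap. Jam2 was at 166.4 to 177.8 CPM in Selp low and 245.7 to 324.0 CPM in Selp high cells (1.76-fold, not called).

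Of 10 LT-HSC markers, 6 fell after transplantation, against 14.6% of all genes, and all 10 were below 0, against 50.9%. The log2 changes of the 6 ran from -1.05 (Slamf1, which encodes CD150 of the sort) to -0.27 (Hlf, a transcription factor of HSCs). Slamf1 is also among the 27 other genes reported higher in old HSCs. Kit was not called (-0.04 ± 0.11). Of 7 endothelial markers tested, 3 fell (Kdr -2.12, Plvap -2.51 and Lyve1 -2.64), against 14.6% of all genes, and Lyve1 was at 1.59 CPM or less. Pecam1 (-0.19), Flt4 (-1.64), Stab2 (-0.51) and Emcn (0.20) were not called. Vwf, Ramp2 and Tm4sf1 of the 32 are also known from endothelium, and the 32 were not searched for others. The sum of the 9 endothelial genes was 179.1 to 254.0 CPM before and 112.7 to 146.1 CPM after. Cdh5 and Sox17 did not pass the filter and stayed at or under 1.22 and 0.242 CPM. Cdh5 was at 0 to 1.22 CPM before and 0 to 0.172 CPM after. As the mean of both inputs, all 10 neutrophil genes were below 0, none was called with edgeR, and none had an unadjusted p under 0.05. From the Selp high input 4 of the 10 had an edgeR unadjusted p under 0.05, against 4871 of 16878 genes, with a median log2 change of -2.25. From the Selp low input 0 had, against 4593 of 16878 genes, with a median of -0.24. None was called from either input. The part of these markers in the change of the 32 genes was not tested beyond leaving out the 3 libraries with the highest neutrophil sums.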

How the data were processed

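The deposited values are whole-number read counts for 55450 gene identifiers in each of 14 libraries. The submitters' processing notes name GRCm38, STAR 2.7.0d, Picard 2.23.0 and FastQC 0.11.9, and the annotation release and the way reads were counted were not given in the sources used here. Each of the 55450 identifiers matched GENCODE M21, used for symbols, positions and exon lengths. Of the deposited counts, those that ignore strand were taken, since the counts of both strands stood at a ratio of 0.989 to 0.999. Some members overlap other genes (Zg16, Itgb1bp1, Ampd3, Ramp2, Bmpr1a, Neo1, Oxr1 and Cavin2, among others). Reads that match exons of more than 1 gene are among the ambiguous ones, and the strand of other reads is not known. Unmapped (3.35 to 5.06%), multimapping (9.93 to 13.4%), unassigned (3.37 to 5.13%) and ambiguous (4.20 to 4.79%) reads stayed out of library sizes.

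Counts were tested with edgeR 4.0.16 in R 4.3.3 (TMM factors, expression filter with a minimum count of 10, quasi-likelihood test, 4 group means over all 14 libraries, 10 residual degrees of freedom, biological coefficient of variation 0.322), with Benjamini-Hochberg adjustment over 16878 genes. Alternatives used DESeq2 1.42.0, limma 3.58.1 voom, other scaling, no filter and libraries left out. CPM are relative to TMM-scaled library sizes, levels per kilobase use the union of exons, and log2 CPM carry a prior count of 2. Fold changes carry the fit's standard error. Depth limits what low counts can show, and intervals and floors cover counting error only. The p-values set each difference against the spread between these libraries. The fit took all libraries as independent, also between the stages, though same-numbered pre-transplant ones were read as 1 mouse. In voom, 2047 of 16878 genes were called lower between the stages with the mouse as a random block, and 2417 without it. On simulated data the fit recovered 83.0% of genes changed by 1 log2 unit and 34.0% of those changed by 0.5 between the stages (16461 genes). Between the fractions before transplantation it recovered 64.0% and 12.0% (16489 genes). The simulated libraries were drawn independently, without pairing by mouse. Only 100 genes were changed by each size, none of them at a low level, far fewer than were called between the real stages. These shares are therefore not the recovery in the real comparisons.

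Same-numbered pre-transplant libraries deviated together (r 0.289 to 0.527, others -0.401 to 0.049), and their number was read as the mouse, while post-transplant ones did not (-0.051 to 0.025) and were not paired. The members and lists were chosen with earlier results of these data known. Values in every library are printed for up to 6 called members with the largest fall and 4 with the largest rise, the highest per kilobase of each role group, and those with the smallest p between the fractions before (4) and after (2) transplantation and for the difference between stages (2). Of the other ageing genes, Selp and the 4 with the smallest p are named. Every other member has its log2 change, and marker genes were named after their values were seen.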

Additional observations from a re-analysis of the deposited data

Results flagged for a closer look

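In the 4 Selp high libraries, 2 genes had 1 library far from the rest. For Ghr the gap from the Selp high library of mouse 1 (81.8 CPM) to the next highest took 0.847 of the range of the group on the log2 CPM scale, and for Ramp2 that of the same library (265.6 CPM) took 0.831. Both passed Dixon's 95% limit for 4 samples on that scale. Chance alone marks about 1 in 20 groups, and 64 groups of 4 were looked at. Ramp2 was also at 267.0 CPM in the Selp low library of the same mouse. Of the endothelial markers, Cdh5 (1.22 CPM), Flt4 (8.49 CPM), Plvap (31.0 CPM) and Stab2 (3.10 CPM) were highest of all 14 libraries in this Selp high library. Pecam1, Kdr, Emcn, Lyve1 and Sox17 were highest in others. Their part in the flagged values was not tested.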

How the results depend on the processing

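Across the 8 other settings of the stage comparison (scaling, filter, DESeq2, voom, mouse block, libraries left out) 27 to 30 members were called lower, and 27 to 29 when 1 library was left out, with a median log2 change of -1.19 to -0.97. No member reversed its direction in a called comparison. The number called higher was 0 to 1 over the leave-one-out fits, the 1 being Gem without the Selp low library of mouse 1. Exoc6b was lost in 10 of 14 such fits, and with both post-transplant libraries that stand apart left out (adjusted p = 0.105). For the Selp low input 18 to 21 were called lower (15 to 20 with 1 library left out) and the median went from -0.90 to -1.14 without the 3 libraries with the highest neutrophil sums and -1.12 without the 2 libraries that stand apart, an alternative chosen after seeing the data. With 1 library left out it ran from -1.11 (without Selp low-derived replicate 2) to -0.74. For the Selp high input 22 to 28 were called lower (21 to 27 with 1 library left out), and the median ran from -1.43 (without Selp high-derived replicate 2) to -1.18. The post-transplant Selp median ran from -0.16 to 0.058 with 1 library left out, reversing to 0.026 without replicate 3 of the Selp low-derived group and to 0.058 without that of the Selp high-derived group. The causes were not tested. The replicate block (mouse) gave 0 calls and a median of 0.21 for Selp high against low before transplantation, and with the mouse as a random block in voom 28 members were called lower after transplantation, against 29 in voom without the block; the block added or removed no call of a member before transplantation. Numbers after transplantation do not pair the libraries; with them as a block the post-transplant median was -0.05. Depth limits Meis2, Osmr and Zg16 after transplantation, where levels were 2.81 CPM or less.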

Other observations

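Of 9 lymphoid and progenitor genes tested, 3 rose after transplantation as the mean of both inputs and none fell, against 12.9% of all genes called higher, and the log2 change was above 0 for 6 and below 0 for 3. Those called were Flt3, a receptor of multipotent progenitors (log2 change 0.85 ± 0.23), the transcription factor Sox4 (1.04 ± 0.12) and Cd34, a surface marker of progenitors (1.03 ± 0.14). By input, Cd34 was called from both (0.81 ± 0.20 from Selp low and 1.25 ± 0.20 from Selp high cells). Sox4 was called from the Selp high input (1.58 ± 0.16) and not from the Selp low input (0.50 ± 0.16, edgeR adjusted p = 0.062). The change of Flt3 was 0.00 ± 0.33 from the Selp low input (edgeR adjusted p = 0.9997) and 1.69 ± 0.33 from the Selp high input (edgeR adjusted p = 0.00334). The difference between the inputs was not called for Flt3, Sox4 or Cd34 (edgeR adjusted p = 0.879 for each). Sox4 was at 140.5 to 174.7 CPM in Selp low and 70.2 to 118.5 CPM in Selp high cells, and at 210.3 to 320.0 CPM after transplantation. Flt3 was at 10.49 to 30.1 CPM in Selp low, 5.05 to 10.7 CPM in Selp high and 14.98 to 30.5 CPM in the post-transplant libraries, so its Selp low and post-transplant values overlapped. Neither was called between the fractions before transplantation with edgeR.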
